A study of Mus musculus with 2 samples.

Results

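The fetal programme of hematopoietic stem cells (HSCs) was examined in RNA-seq counts of adult HSCs through 10 genes chosen by name, *Lin28a*, *Lin28b*, *Hmga1*, *Hmga2*, *Igf2bp1*, *Igf2bp2*, *Igf2bp3*, *Arid3a*, *Sox17* and *Plag1*. All 10 were found among the 24421 gene symbols counted, and genes without reads were kept. There were 2 libraries. The WT library came from *Ezh2* +/+ CreERT+/- cells and the other, called the library labelled Ezh2 KO, from *Ezh2* Δ/Δ CreERT+/- cells, both of the C57BL/6 strain. Both genotypes carried Cre-ERT, a recombinase that tamoxifen activates in whichever cells express it, so the transgene is shared by the control. Marrow cells of CD45.2 donors had been given to lethally irradiated CD45.1 recipients, deletion was induced with 100 µl of tamoxifen at 10 mg/ml daily for 5 days, and HSCs were sorted 1 month later from the lineage-negative, c-Kit+ and Sca-1+ fraction as cells with CD150 and without CD48, Flt3 and CD34. The labels do not give the age or sex of the mice, say how many were pooled, or list CD45.2 among the sorted markers, so whether recipient cells, with intact *Ezh2*, were among them is not stated. Each group had 1 library, so no difference described here has a replicate check.

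During development HSCs pass from a rapidly dividing fetal state to a mostly quiescent adult one, and a small group of RNA-binding and chromatin proteins marks the fetal state. LIN28A and LIN28B bind precursors of the let-7 microRNAs and stop their maturation. When LIN28 is off, mature let-7 accumulates and represses transcripts that carry matches to its seed, among them *Hmga2* and the *Igf2bp* genes. EZH2 is the catalytic subunit of PRC2, the Polycomb complex that methylates H3K27 at silenced genes, and the comparison addressed whether fetal genes were higher in HSCs labelled as lacking it.

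The sequences that tie the 10 genes to this pathway are shown first. The let-7 family was read from RefSeq (GRCm38.p6). Of 21 named mature products of the let-7 and miR-98 genes in that table, 9 share 1 seed (bases 2 to 8, in capitals), and 5 of them are printed to show that the seed is constant while the rest of the molecule varies.
let-7a-5p (chr13:48538239-48538260, minus strand): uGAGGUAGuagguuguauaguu
let-7d-5p (chr13:48536078-48536099, minus strand): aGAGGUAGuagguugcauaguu
let-7g-5p (chr9:106178846-106178867, plus strand): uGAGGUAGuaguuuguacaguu
let-7i-5p (chr10:122985698-122985719, minus strand): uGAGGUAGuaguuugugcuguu
miR-98-5p (chrX:151913229-151913250, plus strand): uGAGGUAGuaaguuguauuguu

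The reverse complement of that seed, CTACCTC, was searched on the sense strand of the longest annotated 3' UTR of each gene (GENCODE M21, GRCm38). It was present in 8 of the 10 members and in 9.02% of the 21037 genes with a 3' UTR. *Lin28b*, *Hmga2* and *Igf2bp1* had 4 matches each, a number reached or passed in 12 of all 21037 UTRs. *Lin28a* and *Arid3a* had 2, while *Hmga1*, *Igf2bp2* and *Igf2bp3* had 1. *Sox17* and *Plag1* had no match in these windows. Long UTRs hold matches more often, so each member was set beside UTRs of similar length. Of those, 24.4% held at least 1 match at the 4445 bases of *Lin28b*, 16.1% at the 3014 bases of *Hmga2*, 34.4% at the 6337 bases of *Igf2bp1* and 8.23% at the 1183 bases of *Hmga1*. Several members were known as let-7 targets before they were grouped, so these matches describe the group and do not test it.

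One match per gene is printed with its flanking exonic 3' UTR sequence (GRCm38), the match in capitals, the first one followed by A where the gene has such a match.
*Lin28a* (chr4:134005189-134005211, minus strand): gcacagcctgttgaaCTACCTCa
*Lin28b* (chr10:45381022-45381044, minus strand): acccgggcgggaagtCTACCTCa
*Hmga1* (chr17:27563277-27563299, plus strand): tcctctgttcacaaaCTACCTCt
*Hmga2* (chr10:120364224-120364246, minus strand): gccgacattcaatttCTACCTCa
*Igf2bp1* (chr11:95961778-95961800, minus strand): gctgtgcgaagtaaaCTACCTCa
*Igf2bp2* (chr16:22059473-22059495, minus strand): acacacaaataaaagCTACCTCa
*Igf2bp3* (chr6:49086787-49086809, minus strand): tgcatttttactcaaCTACCTCa
*Arid3a* (chr10:79953895-79953917, plus strand): aaggcaagtttctttCTACCTCa
An A after the match is a known feature of effective sites. It followed 10 of the 19 matches, in 7 of the 8 genes, and *Hmga1* was the one without it.

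**Figure D1:**
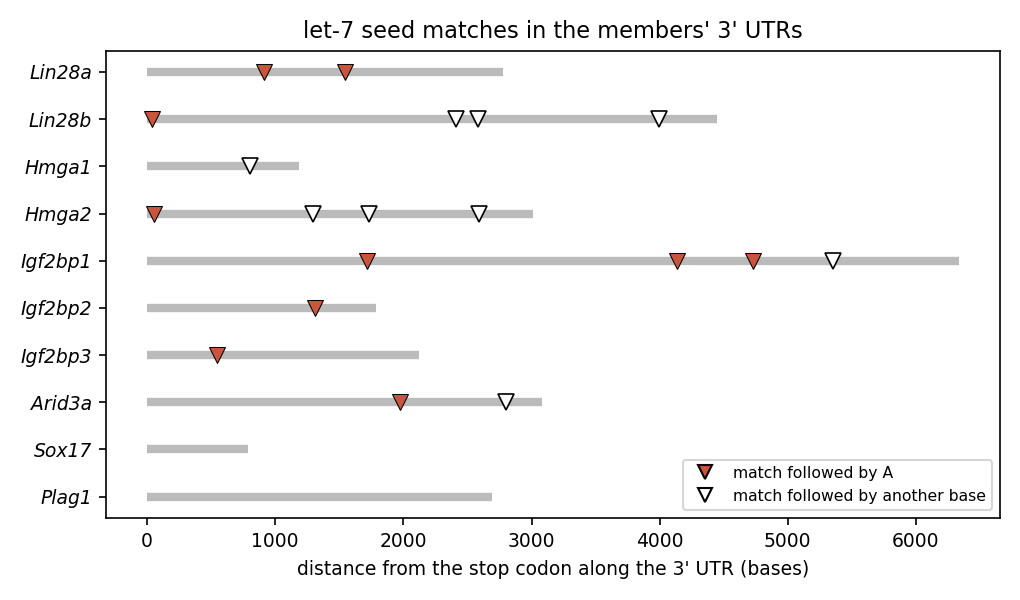
Positions of let-7 seed matches (triangles) along the longest annotated 3' UTR of each member (grey bars), as the distance in bases from the stop codon. *Lin28b*, *Hmga2* and *Igf2bp1* hold 4 matches each, the first of *Lin28b* and *Hmga2* at 36 and 58 bases, and *Sox17* and *Plag1* hold none.

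The libraries were checked before the members were compared. Gene totals were 5763118 in WT against 4157280 in the library labelled Ezh2 KO, so that 3 counts, taken as the floor, equal 0.521 and 0.722 CPM (counts per 1000000 gene counts of a library). *Ezh2* itself had 166 and 129 counts, or 142.5 and 150.3 after division by size factors (log2 ratio 0.08, exact 95% interval -0.27 to 0.42). The gene-level count thus did not fall where the label says knockout. Such a count covers the whole gene and cannot show whether part of it was deleted. All 12 HSC markers listed were measured in both libraries and 0 of them were called, although *Slamf1*, which encodes the sorting marker CD150, had a log2 ratio of -0.62, *Fgd5* -0.59 and *Ctnnal1* -0.70, each with an adjusted value under 0.01 by the exact test and below 2-fold (these 3 were picked out after their values were seen). Markers of other cell types were called. Of the 8 eosinophil markers 5 were called higher (summed 2.08 CPM in WT against 775 in the library labelled Ezh2 KO, with *Prg2* and *Epx* at 0 counts in WT), as were 6 of 10 neutrophil, 4 of 10 erythroid and 5 of 12 B lymphoid markers, while 2 of 10 megakaryocyte markers were called lower. T and NK (2 higher, 1 lower), monocyte and dendritic (1 lower) and stromal markers (2 higher), each of 10 genes, moved less uniformly. *Xist* had 801 and 4 counts, and *Ddx3y*, *Eif2s3y*, *Kdm5d* and *Uty* were at 0 in WT only, so the libraries also differed in the sex of their cells. Less RNA per cell and fewer cells of a type cannot be told apart in such bulk samples, and the part of these differences in the members' values was not tested.

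Of the 10 members, 4 were silent or nearly so in both libraries. *Lin28b* (chromosome 10, 45376620 to 45486395), the LIN28 paralogue of fetal liver HSCs, had 0 counts in WT against 0 in the library labelled Ezh2 KO. *Lin28a* (chromosome 4, 134003330 to 134018841), the paralogue of early embryonic cells, had 1 and 0 counts. *Igf2bp1* (chromosome 11, 95957163 to 96005940), an RNA-binding protein that stabilises fetal transcripts, had 0 in both, and so had *Sox17* (chromosome 1, 4490931 to 4497354), a transcription factor required by fetal but not adult HSCs. A count of 0 allows up to 3 counts, so each of these 3 genes could be present at up to 0.521 CPM in WT and 0.722 CPM in the other library and go unseen. No ratio was formed for any of the 4. For scale, a gene at 0 in WT would have been called higher from 9 counts (2.16 CPM) in the library labelled Ezh2 KO, and *Lin28a*, at 1 count, from 10 counts. Zero counts were common, with 9566 genes (39.2%) at 0 in both libraries. *Trim71*, a let-7 target of embryonic cells, was also at 0 in both.

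The other 6 members exceeded the floor in both libraries and formed the set tested. *Hmga1* and *Hmga2* encode AT-hook chromatin proteins, HMGA2 being the one tied to fetal HSC self-renewal. *Hmga2* (chromosome 10, 120361275 to 120476469) had 27 counts in WT against 17 in the library labelled Ezh2 KO, which is 23.2 normalised counts (exact 95% Poisson interval 15.3 to 33.7) and 19.8 (11.5 to 31.7). The intervals overlapped over most of their length. The log2 ratio was -0.22 (95% interval -1.19 to 0.70), so a rise of more than 1.63-fold lay outside the counting error of these libraries.

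*Hmga1* (chromosome 17, 27556497 to 27563674) had 31 and 14 counts, or 26.6 normalised counts (18.1 to 37.8) in WT against 16.3 (8.92 to 27.4) in the library labelled Ezh2 KO. Its log2 ratio of -0.67 (-1.73 to 0.25) was the lowest of the 6, and its interval still held 0. Its count is uncertain, because 51.6% of its possible 60-base reads also occur exactly in transcripts of other genes. Reads with several alignments enter no gene count, and they were 10.7% of all entries in WT against 12.3% in the library labelled Ezh2 KO. The share of possible 60-base reads found in other genes was 0% to 1.91% for *Lin28b*, *Hmga2*, *Igf2bp1*, *Igf2bp2*, *Arid3a* and *Plag1*. It was 4.48% for *Lin28a*, 14.6% for *Sox17* and 18.0% for *Igf2bp3*, each shared with a gene that overlaps its exons. Reads from such an overlap need not have several alignments, so these 3 shares do not stand for reads lost that way.

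The IGF2BP proteins bind and stabilise transcripts such as *Igf2* and *Myc*. *Igf2bp2* (chromosome 16, 22059009 to 22163299), the family member that adult tissues keep, had 28 counts in WT against 22 in the library labelled Ezh2 KO, which is 24.0 (16.0 to 34.7) and 25.6 (16.1 to 38.8) normalised counts. The log2 ratio was 0.09 (-0.78 to 0.95), which is close to no difference and bounded at 1.93-fold. *Igf2bp3* (chromosome 6, 49085223 to 49214957), typical of fetal tissue and fetal B lymphopoiesis, had 12 and 11 counts, or 10.3 (5.32 to 18.0) and 12.8 (6.40 to 22.9). This lowest count of the 6 gave the widest interval, with a log2 ratio of 0.29 (-1.01 to 1.62). Of its exonic bases 18.7% overlap *Malsu1* on the opposite strand, which had 145 and 101 counts, and since the strand setting of counting is not given, reads from there cannot be assigned with certainty.

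*Arid3a* (chromosome 10, 79927043 to 79955018), a DNA-binding factor that drives fetal-type B lymphopoiesis downstream of LIN28B and let-7, was the most strongly counted member. It had 121 counts in WT against 108 in the library labelled Ezh2 KO, which is 103.8 (86.2 to 124.1) and 125.9 (103.2 to 151.9) normalised counts. The log2 ratio of 0.28 (-0.11 to 0.66) did not pass the test. B lymphoid markers, of a lineage that also uses *Arid3a*, summed to 51.7 CPM in WT and 107 CPM in the other library. Of these sums *Cd79b*, which was not called, supplied 43.6 and 55.1 CPM. *Rag1* and *Rag2* were at 0 in both libraries, and the part of B lymphoid cells in the value of *Arid3a* was not tested. *Arid3a* alone made up 50.2% of the members' 241 counts in WT and 58.7% of 184 in the other library. *Plag1* (chromosome 4, 3900996 to 3938423), a zinc finger activator of *Igf2*, had 21 and 12 counts, or 18.0 (11.2 to 27.5) and 13.98 (7.23 to 24.4), with a log2 ratio of -0.34 (-1.52 to 0.72).

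**Figure D2:**
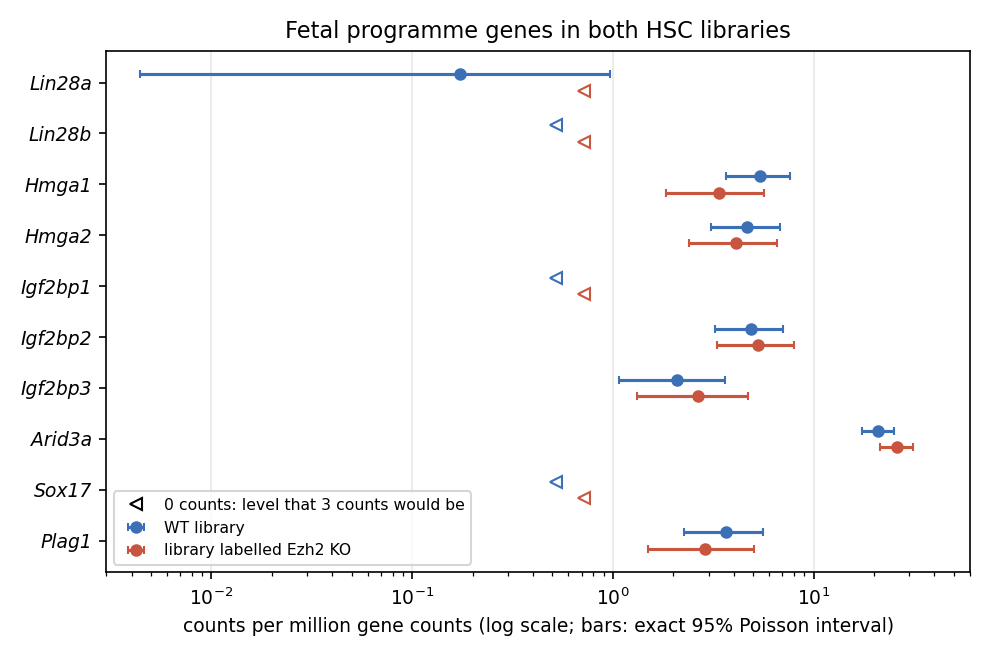
Level of each member in CPM on a log axis in the WT library (blue) and the library labelled Ezh2 KO (red), with exact 95% Poisson intervals that cover counting error only. Open triangles mark 0 counts, drawn at the level of 3 counts (0.521 and 0.722 CPM), and the 6 members with more counts have overlapping intervals.

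By an exact two-sided conditional binomial test on all 12588 genes with a mean of at least 1 CPM, with Benjamini-Hochberg adjustment and a minimum of 2-fold, 0 of the 6 members tested were higher and 0 were lower. Among all genes tested 5.11% were called, 2.8% higher and 2.3% lower. By 2-fold alone 0 of the 6 members passed, beside 8.81% of all genes (4.91% higher and 3.9% lower). At an unadjusted p under 0.05, 0 of the 6 members passed, against 40.8% of all genes. Members other than *Arid3a* had at most 31 counts in a library, where only large ratios pass. These shares therefore do not compare genes of like count. The test holds only counting error and compares these 2 libraries, not the conditions. Adjusted values of the members ran from 0.259 for *Hmga1* to 0.945 for *Igf2bp2*. An edgeR exact test with an assumed coefficient of variation (CV) of 0.2 or 0.4 between libraries called 0. That outcome was fixed in advance, since it keeps the ratios and 0 of the 6 members passed 2-fold. Ratios lay on both sides of 0, above it for *Arid3a*, *Igf2bp2* and *Igf2bp3* and below it for *Hmga1*, *Hmga2* and *Plag1*, with a median log2 ratio of -0.06 beside -0.0032 for all genes tested.

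**Figure D3:**
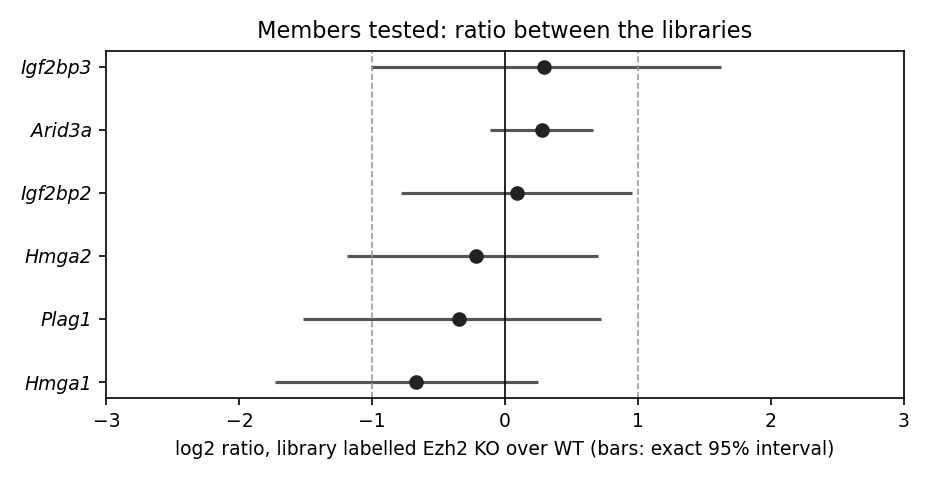
Log2 ratio of each tested member, library labelled Ezh2 KO over WT, with exact 95% intervals. Dashed lines mark 2-fold, every interval crosses 0, and points run from -0.67 (*Hmga1*) to 0.29 (*Igf2bp3*).

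The counts and the 2-fold minimum together set what could have been called. To be called higher, *Arid3a* would have needed 180 counts in the library labelled Ezh2 KO (2.02-fold), *Hmga2* 43 counts (2.16-fold), *Igf2bp2* 44 (2.13-fold) and *Igf2bp3* 26 (2.94-fold). For *Arid3a*, *Hmga1*, *Hmga2*, *Igf2bp2* and *Plag1* the upper end of the interval was below 2-fold, from 1.19-fold for *Hmga1* to 1.93-fold for *Igf2bp2*, while for *Igf2bp3* it reached 3.08-fold. The 2-fold minimum set the number for *Arid3a*, whose counts could have passed the exact test at a smaller fold. Intervals and floors leave out variation between animals and library preparations.

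**Figure D4:**
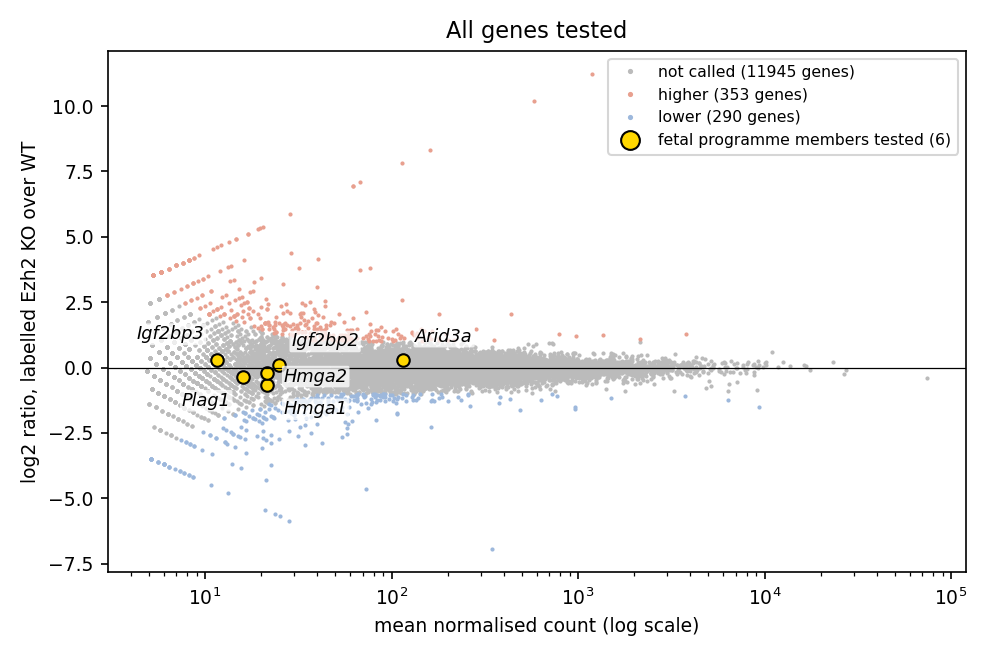
Log2 ratio against mean normalised count (log axis) for the 12588 genes tested. The 6 members (gold) lie within the grey cloud of uncalled genes, 5 of them at low counts, while 353 genes were higher (red) and 290 lower (blue).

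Levels were compared between members per length, as CPM per kb of all annotated exons, and the order depends on the length used. In WT *Arid3a* was highest at 3.77, then *Hmga1* at 2.53, *Hmga2* at 0.692, *Igf2bp2* at 0.656, *Plag1* at 0.429 and *Igf2bp3* at 0.255. Of the neighbours in this order only *Hmga1* and *Hmga2* differed beyond counting error, with a ratio of 3.66 (exact 95% interval 2.11 to 6.37), which was 2.19 (1.26 to 3.81) with the length of the longest transcript. Values in the library labelled Ezh2 KO were 4.67 for *Arid3a*, 1.58 for *Hmga1*, 0.715 for *Igf2bp2*, 0.604 for *Hmga2*, 0.340 for *Plag1* and 0.324 for *Igf2bp3*. There *Arid3a* exceeded *Hmga1* 2.95-fold (1.68 to 5.57) and *Hmga1* exceeded *Igf2bp2* 2.22-fold (1.05 to 4.53), and the lower neighbours did not separate. The second of these was lost with the longest transcript (1.57, 0.745 to 3.22). The place of *Hmga1* below *Arid3a* is not firm either, because of the reads it shares with other genes. Exon length was therefore also scaled down by the share of 60-base reads found in other genes, an approximation called unshared length. With it *Arid3a* over *Hmga1* was 0.722 (0.483 to 1.11) in WT and 1.43 (0.815 to 2.70) in the library labelled Ezh2 KO. The order thus turned in WT, and neither difference exceeded counting error. Per kb of all annotated exons *Arid3a* stood at percentile 65.4 of all genes in WT against 67.5 in the other library, and *Igf2bp3* at 47.5 and 48.0. Beside the let-7 matches, *Lin28b* and *Igf2bp1* with 4 were at 0, as was *Sox17* with none, while *Hmga2*, also with 4, was counted in both libraries. Whether the matches bear on these levels was not tested.

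The rest of the pathway was then read from lists of genes. Across 8 lists holding 105 genes beside the members, 69 were tested, 2 were higher and 1 was lower, so calls were no more frequent than the 5.11% among all genes. With an assumed CV of 0.2 between libraries, 0 of the 3 were called by the edgeR exact test. Factors that process or degrade let-7 precursors were mostly present. Of 16, 14 were tested, *Trim71* and *Msi1* were at 0 in both libraries and 0 were called, with a median log2 ratio of 0.05. *Khsrp*, a cofactor of let-7 maturation, had 800.6 normalised counts in WT against 657.2 in the library labelled Ezh2 KO. The uridylyl transferases that LIN28A recruits to let-7 precursors had 568.9 and 673.5 (*Zcchc6*) and 375.9 and 382.2 (*Zcchc11*). *Xpo5*, which exports precursors from the nucleus and was picked out after its value was seen, had 470.3 and 272.7, a log2 ratio of -0.78 (-1.01 to -0.56) that was below 2-fold. *Msi2*, likewise picked out afterwards, went the other way with 265.2 and 390.4, a log2 ratio of 0.56 (0.33 to 0.79). Of the 14 tested, 8 lay above 0 and 6 below.

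The let-7 genes themselves can hardly be read in such libraries, because mature microRNAs are too short to be captured. Of 20 let-7, miR-98, miR-99, miR-100 and miR-125 genes and host genes read, 16 had 0 counts in both libraries and *Mirlet7i* had 1 and 0. The protein-coding hosts *Wdr82* (507.2 and 477.8 normalised counts) and *Huwe1* (404.2 and 361.2) and the noncoding host *Mir99ahg* (4 and 9 counts) were tested and 0 were called.

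Other transcripts described as let-7 targets moved in both directions. Of 21, 19 were tested, 9 lay above 0 and 10 below, and the median log2 ratio was -0.04. *Mycn*, a MYC family factor of HSCs, was the lower gene, with 5096.5 normalised counts in WT against 2422.7 in the library labelled Ezh2 KO (log2 ratio -1.07, -1.15 to -1.001). *E2f2*, a cell-cycle transcription factor, was called higher, from 34.3 to 80.4 (1.20, 0.65 to 1.83). *Ccnd2* had 4053.0 and 3930.6 and *Myc* 2637.9 and 3268.7, and neither was called.

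In the IGF axis, which *Igf2bp* proteins and *Plag1* act on, 8 of 16 genes were tested and 0 were called. Of the 8, 6 lay above 0 and 2 below, with a median log2 ratio of 0.53. The most abundant were *Igfbp4*, an IGF-binding protein (2341.9 and 1243.4 normalised counts, log2 ratio -0.91), *Irs2* (526.0 and 504.6) and the receptor *Igf1r* (258.3 and 398.5, log2 ratio 0.62). *Igf2*, picked out after its values were seen, had 1 count in WT against 9 in that labelled Ezh2 KO, giving a log2 ratio of 2.63 (0.76 to 9.07) with an adjusted value of 0.0124, just outside the threshold of 0.01. *H19*, its imprinted neighbour and likewise picked out afterwards, had 3 and 2 counts.

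Relatives of the members gave no call. Among other HMG proteins 7 of 8 genes were tested, and all 7 had log2 ratios above 0, from 0.04 to 0.57. Of all genes tested 50.4% lay below 0. The intervals of *Hmgb1*, *Hmgb3*, *Hmgn3* and *Hmgn5* held 0, and those of *Hmgb2*, *Hmgn1* and *Hmgn2* did not. *Hmgb1* had 4666.6 and 4809.2 normalised counts, *Hmgn2* 4234.1 and 5358.1, and *Hmgb2*, a marker of dividing cells, 1209.1 and 1801.6. Of 10 paralogues 6 were tested, with a median log2 ratio of -0.28. They included the cold-shock proteins *Ybx3* (2686.8 and 2256.0) and *Ybx1* (1852.7 and 1848.2), which share their RNA-binding domain type with LIN28. The SoxF factor *Sox18*, named after its value was seen, had 106.4 and 61.8, unlike its paralogues *Sox17* at 0 in both and *Sox7* at 2 and 0 counts. *Sox17* is also an endothelial gene, and of 10 endothelial markers *Cdh5* and *Ptprb* were at 0 in both libraries, with a summed level of 81.2 CPM in WT and 79.6 CPM in the other.

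All 11 PRC2 subunits listed were tested and 0 were called, with a median log2 ratio of 0.11.

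Embryonic globins mark the primitive erythroid cells of the yolk sac, while erythroid cells of the mouse fetal liver use adult globins. *Hbb-y*, *Hbb-bh1* and *Hba-x* were at 0 counts in both libraries. Among the factors that silence them *Bcl11a* had 1048.7 and 1043 normalised counts (log2 ratio -0.01, -0.13 to 0.12), *Myb* 1532.6 and 2090.6 and *Zbtb7a* 708.0 and 748.1, none of them called. *Klf1*, the erythroid activator, was called higher, from 43.8 to 108.4 normalised counts (log2 ratio 1.29, 0.80 to 1.83). It is itself 1 of the 10 erythroid markers, of which 4 were higher. The 10 markers summed to 1804 CPM in WT and 2306 CPM in the other library. Of these sums *Car2*, which was not called, supplied 1713 and 2066 CPM. The part of erythroid cells in the value of *Klf1* was not tested.

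**Figure D5:**
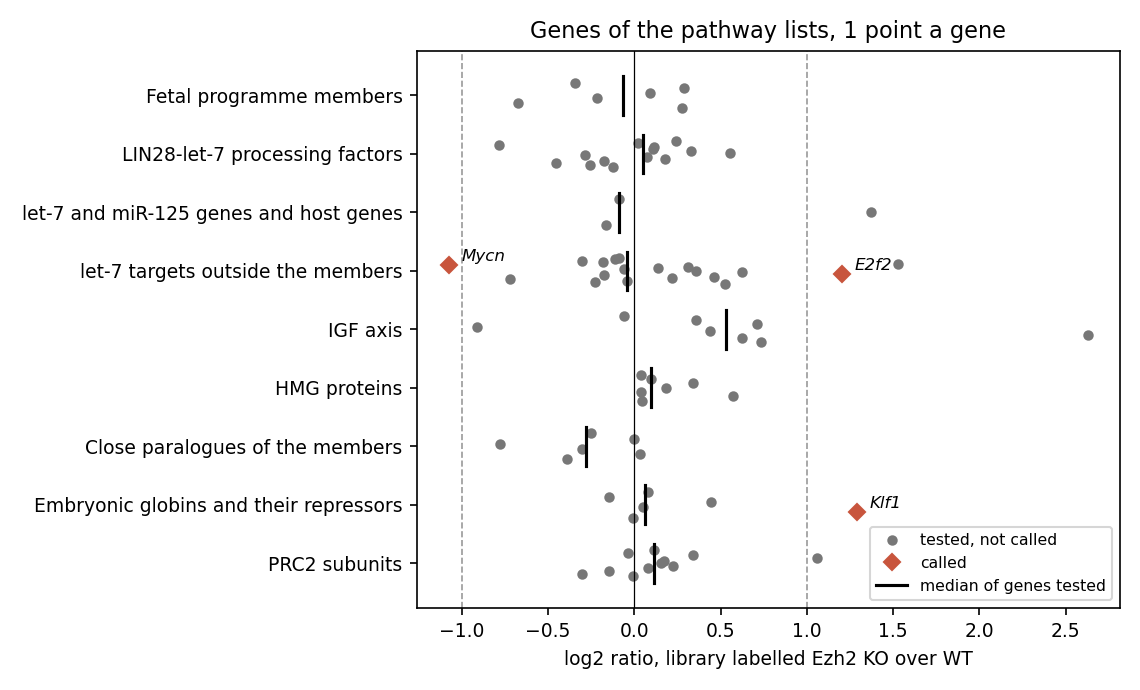
Log2 ratio, library labelled Ezh2 KO over WT, of every tested gene in the members' list and 8 pathway lists, with list medians as black bars and dashed lines at 2-fold. Diamonds mark the only called genes, *Mycn* (-1.07), *E2f2* (1.20) and *Klf1* (1.29), and none is a member.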

How the data were processed

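RNA of sorted HSCs had been amplified with a low-input SMARTer kit before sequencing. Alignment, per the labels, used TopHat2 2.0.13 with Bowtie2 2.1.0 on mm10. The deposited values are raw counts, 1 per gene symbol, left unnormalised by the authors. StringTie is named as their source, yet each file ends with the 5 entries that htseq-count writes (7376626 reads in WT against 5481455 in the library labelled Ezh2 KO), which were left out. Counts were divided by DESeq2 size factors (1.17 for WT, 0.858 for the other), and log2 ratios were formed after adding 1. The paper describes DESeq2 for its young and aged cells, whereas the tools named for these samples include edgeR and not DESeq2. Because 1 library per group gives no spread, each gene was given an exact conditional binomial test with Benjamini-Hochberg adjustment, called at an adjusted value under 0.01 and 2-fold. Intervals are exact 95% (Clopper-Pearson for ratios, Poisson for counts) and cover counting error only, since reads lack molecular identifiers. Exon lengths, positions and 3' UTRs came from GENCODE M21 (GRCm38, the assembly of mm10), with 24054 symbols matched.

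The members and lists were chosen with earlier results of these data known. Named genes were the members, *Ezh2*, sex-linked genes, called genes and the 3 most abundant of each list, and markers that were called or at 0; not all are reported. The procedure was also run on simulated data that held counting error only. Such data hold no spread between libraries, so they do not test the procedure against it. Software was Python 3.11.15 (scipy 1.17.1, numpy 2.4.6, matplotlib 3.10.9, pandas 2.3.3) and R 4.3.3 (edgeR 4.0.16, DESeq2 1.42.0).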

Additional observations from a re-analysis of the deposited data

How the results depend on the processing

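Under all 14 alternatives for scaling, pseudocount, filter, thresholds, depth, test and gene set, 0 members were called. Those that keep the ratios and a minimum of 2-fold or more could not call any of the 6, since 0 passed 2-fold. Over 10 of the 14 alternatives, all 55 log2 ratios of the 6 members kept their sign and moved by at most 0.19. Their adjusted values were at least 0.148. The filter and edgeR alternatives leave a ratio unchanged by construction, and only scaling, pseudocount, depth and gene set could move it. A pseudocount added to both libraries cannot change the sign, so only scaling, depth and gene set could have reversed a ratio. A floor of 1 or 10 counts left 4 members at the floor, and a 6-base seed match, which lies within the 7-base one, was in 8 members and 23.4% of all UTRs (9.02% with 7 bases). Of level ratios, *Arid3a* over *Hmga1* in WT was 1.49, 1.46 with the longest transcript and 0.722 with unshared length, an alternative chosen after seeing the data. In the library labelled Ezh2 KO, *Igf2bp2* over *Hmga2* became 0.996 with the longest transcript, and *Plag1* over *Igf2bp3* 0.993 with it and 0.860 with unshared length. The number of calls among all genes, 353 higher and 290 lower, became 96 and 115 with a mean of at least 10 CPM, 626 and 636 at 1.5-fold, 169 and 96 at 4-fold, 1218 and 1425 with no fold threshold, 41 and 22 with an assumed CV of 0.2, and 8 and 2 with a CV of 0.4. The 3 calls in the pathway lists became 8 at 1.5-fold, 18 with no fold threshold, 5 at an adjusted value under 0.05 (adding *Igf2* and *Phf19*), and 0 at 4-fold and with either CV. Thresholds and assumed spread set these numbers by construction. No paired analysis was possible because the design holds 1 library per group. Of the 6 members tested 5 had at most 31 counts in a library, which limits their precision.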
